A study of Mus musculus with 12 samples.

Results

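The subunits of the proteasome, with those of its inducible form, the immunoproteasome, were read in spleen RNA of 12 BALB/c mice on Affymetrix 3' expression arrays, each mouse on its own array. The genes were taken by name, as all probe sets (groups of probes that read 1 transcript) whose single gene symbol was Psma, Psmb, Psmc, Psmd, Psme, Psmf or Psmg followed by a number. This gave 100 probe sets for 47 genes, of 45037 probe sets and 18193 genes with 1 symbol on the array. Where a gene had more than 1 probe set, as 26 genes did, the one with the highest mean over the 12 arrays stood for it. Of the 47 genes, 45 passed the filter on low signal, as did 86 of the 100 probe sets. The testis subunit Psma8, with signals of 43.28 to 146.0, and the thymus subunit Psmb11, with 4.314 to 31.51, did not. Psme2, the partner of Psme1, is read here only by a probe set that it shares with Psme2b, and was not analysed here.

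The mice formed 4 groups of 3: wild type (wt) and Il1rn-deficient (ko) at 1 month, and the same genotypes at 4 months. The product of Il1rn is the natural antagonist of the IL-1 receptor, and its loss on the BALB/c background leads to arthritis. The title of the study speaks of genes tied to a phase of that disease. All groups shared the BALB/c background, and the labels name no other allele, no treatment and no sex. The spleen was taken whole, so each value is an average over all its cells, and fewer cells of a type and less RNA per cell cannot be told apart. The labels number the mice but say nothing of litters or cages, so p-values rest on the spread between the mice within these 4 groups.

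The proteasome is the protease that degrades most ubiquitin-tagged proteins of the cell. Its 20S core is a stack of alpha and beta rings in which Psmb5, Psmb6 and Psmb7 carry the catalytic sites, and the 19S particle on its ends recognises, unfolds and feeds in the substrate. In cells of the immune system, and elsewhere under interferon gamma, Psmb8, Psmb9 and Psmb10 take the places of Psmb5, Psmb6 and Psmb7, and the 11S activator of Psme1 and Psme2 can cap the core. The resulting immunoproteasome produces many of the peptides shown on MHC class I.

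The start regions of Psmb8 and Psmb9, whose age differences passed the test in both genotypes, are shown with those of their constitutive counterparts Psmb5 and Psmb6. The age differences of these pairs had opposite signs in both genotypes. Psmb5 passed the test in ko and Psmb6 in neither genotype. The pairs Psmb10 and Psmb7, and Psme1 and Psme3, also had opposite signs in both genotypes and are not shown. The sequences are from RefSeq, build GRCm38.p6, and read 5′ to 3′ on the strand of the named gene up to the last base before its start. Capitals mark matches, on either strand, to 4 motifs: GAAANNGAA (interferon regulatory factor element), TTCNNNGAA (gamma activated sequence), TGACNNNGC (antioxidant response element) and CCGGAAG (ETS element).
Psmb9, chr17:34187331-34187555, minus strand: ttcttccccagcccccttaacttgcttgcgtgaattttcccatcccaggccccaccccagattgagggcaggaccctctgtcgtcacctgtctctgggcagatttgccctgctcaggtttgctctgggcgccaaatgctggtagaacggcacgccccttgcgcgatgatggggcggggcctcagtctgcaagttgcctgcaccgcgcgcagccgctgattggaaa
Psmb8, chr17:34197945-34198194, plus strand: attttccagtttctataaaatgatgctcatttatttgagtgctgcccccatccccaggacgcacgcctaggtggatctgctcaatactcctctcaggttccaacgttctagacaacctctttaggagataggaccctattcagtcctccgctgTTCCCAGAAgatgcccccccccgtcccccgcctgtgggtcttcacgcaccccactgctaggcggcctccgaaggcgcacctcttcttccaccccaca
Psmb6, chr11:70525107-70525356, plus strand: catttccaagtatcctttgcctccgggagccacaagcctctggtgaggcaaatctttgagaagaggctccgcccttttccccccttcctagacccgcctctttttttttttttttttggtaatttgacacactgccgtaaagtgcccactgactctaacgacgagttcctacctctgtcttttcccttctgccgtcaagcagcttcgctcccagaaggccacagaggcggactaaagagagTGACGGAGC
Psmb5, chr14:54617996-54618245, minus strand: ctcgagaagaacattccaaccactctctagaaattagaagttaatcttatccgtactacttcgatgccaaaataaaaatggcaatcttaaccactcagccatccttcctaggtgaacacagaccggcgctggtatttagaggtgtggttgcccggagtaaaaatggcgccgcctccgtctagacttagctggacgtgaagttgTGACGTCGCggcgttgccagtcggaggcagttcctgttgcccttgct

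Psmb9 and Psmb8 lie in the MHC region of chromosome 17, where the RefSeq gene table gives the order Psmb9, Tap1, Psmb8, Tap2. Psmb9 and Tap1, a subunit of the pump that carries peptides to MHC class I, start 226 bases apart and run in opposite directions, and the Psmb9 sequence is the 225 bases between them. None of the 4 motifs matched in it. The Psmb8 sequence held TTCCCAGAA, which matches the gamma activated sequence and begins 97 bases before the start. Both constitutive counterparts matched the antioxidant response element, Psmb5 with TGACGTCGC 47 bases and Psmb6 with TGACGGAGC 9 bases before the start.

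The promoter table held 41 windows of 300 bases, 250 before and 50 after the start, for 39 of the 47 genes. The ETS element was in 15 of them (36.6%), against 8.86% of all 32851 windows in the table, and the interferon regulatory factor element was in 7 (17.1%) against 8.56%. Those 7 were the windows of Psmb3, Psmb4, Psmc2, Psmd4, Psmd9, Psme1 and Psmg4. The gamma activated sequence was in 3 (7.32%), those of Psmb8, Psmd2 and Psmg1, against 8.3%, and the antioxidant response element in 6 (14.6%) against 12.4%. These matches describe letters only. The 14 genes with the ETS element were Psma6 and Psme3, Psme4, Psmg1, Psmg3 and 9 subunits of the 19S particle, and did not include Psmb8, Psmb9 or Psmb10.

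Values are MAS5 signals scaled to 1 trimmed mean per array, in which genes cannot be ranked against each other because probes differ. A log2 difference is on the scale log2(signal + 32), with its standard error (SE). A gene was called at a limma p under 0.05 after Benjamini-Hochberg adjustment over the 27041 probe sets tested. The median signal of an array was 112.9 to 147.5, and 52.11% to 59.24% of probe sets reached a signal of 100. Of the 3 probe sets of Il1rn, 2 separated the genotypes fully. The first read 120.5 to 278.4 in the 6 wt arrays and 5.641 to 40.82 in the 6 ko arrays (log2 difference -1.70 at 1 month and -2.17 at 4 months, limma adjusted p 0.0403 and 0.0034). The second read 81.16 to 207.9 in wt and 34.58 to 78.28 in ko and was not called, nor was the overlapping one (limma adjusted p 0.0739 to 0.543 for both). Arrays of wt at 4 months stood apart in 2 ways: replicate 2 carried pancreas transcripts, with a summed marker signal of 154600 against 1326 to 2554 in the other 11 arrays, and replicate 1 had the highest 3' to 5' ratios, 0.9995 for Gapdh against 0.649 to 0.8156 and 1.371 for actin against 1.068 to 1.201.

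The immunoproteasome genes Psmb8 and Psmb9 rose from 1 to 4 months in both genotypes. Of the 31 constitutive subunits, 12 fell in wt and 12 in ko, and none rose. No other member rose in either genotype, whereas 19 of the 45 fell in wt and 17 fell in ko. As background, 11.8% of all probe sets tested rose and 9.67% fell with age in wt, and 13.6% rose and 9.25% fell in ko. The median log2 difference of the 45 genes was -0.34 in wt and -0.36 in ko, beside 0.09 and 0.10 over all probe sets tested. The mice of the 2 ages are separate, as are those of the 2 genotypes, so the age comparisons in wt and in ko share no array.

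Psmb8 encodes the inducible subunit that replaces Psmb5. Its signal at 1 month was 3790, 3992 and 4032 in wt and 3876, 3480 and 2553 in ko. At 4 months it was 5121, 6064 and 5900 in wt and 5688, 5740 and 5894 in ko. All 6 arrays at 4 months lay above all 6 at 1 month. Psmb8 rose 1.44-fold in wt (log2 difference 0.53, SE 0.15, adjusted p 0.0182, limma) and 1.77-fold in ko (0.82, SE 0.15, adjusted p 0.00105, limma). A second Psmb8 probe set was near the detection limit, with signals of 27.14 to 216.7, and gave log2 differences of 0.24 in wt and -0.73 in ko, neither of them called (limma adjusted p 0.648 and 0.136). With both probe sets averaged, the log2 difference was 0.38 in wt (limma adjusted p 0.108) and 0.05 in ko (0.864), so the call of Psmb8 rests on the bright probe set. In wt it was also lost without replicate 1 at 1 month (limma adjusted p 0.0633) and without replicate 2 (0.0567) or replicate 3 (0.0508) at 4 months.

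Psmb9, the inducible counterpart of Psmb6, has 1 probe set. At 1 month it read 2897, 3825 and 3465 in wt and 3005, 3260 and 2839 in ko. In the older mice it read 4777, 4976 and 4850 in wt and 5515, 4897 and 5055 in ko. Again no array at 4 months fell within the range at 1 month. The increase was 1.44-fold in wt (log2 difference 0.52, SE 0.13, adjusted p 0.00943, limma) and 1.69-fold in ko (0.76, SE 0.13, adjusted p 0.00082, limma). In ko the call held when any 1 array was left out, and in wt it was lost without replicate 1 at 1 month (log2 difference 0.42, limma adjusted p 0.0548).

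Psmb10, the inducible counterpart of Psmb7, was higher at 4 months without passing the test. Its signal was 1905, 1977 and 2213 in wt and 2143, 2161 and 1669 in ko at 1 month, against 2445, 2606 and 2628 in wt and 2386, 2581 and 2247 in ko at 4 months. The ages did not overlap within either genotype. In wt the log2 difference was 0.33 (SE 0.14), with a limma adjusted p of 0.0945, and in ko it was 0.28 (SE 0.14), with 0.16.

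Psme1, the alpha subunit of the 11S activator, gave 5889, 5718 and 6679 in wt and 5792, 6656 and 6550 in ko at 1 month. At 4 months it gave 6179, 6775 and 6045 in wt and 8772, 7324 and 8092 in ko. The 3 ko arrays at 4 months were the highest of the 12. The log2 difference with age was 0.06 (SE 0.13, limma adjusted p 0.788) in wt and 0.35 (SE 0.13, limma adjusted p 0.0595) in ko, and the call in ko depended on the processing. It passed under quantile normalization (0.50, limma adjusted p 0.00553), a filter at 200 (0.35, 0.048), array weights (0.33, 0.0109), a fit of the compared groups alone (0.35, 0.036) and the mean over probe sets (0.35, 0.0331), and was 0.20 (0.36) with arrays centred on their median. The difference between these 2 age effects, 0.29 (SE 0.18), was not called (limma adjusted p 0.689).

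**Figure D1:**
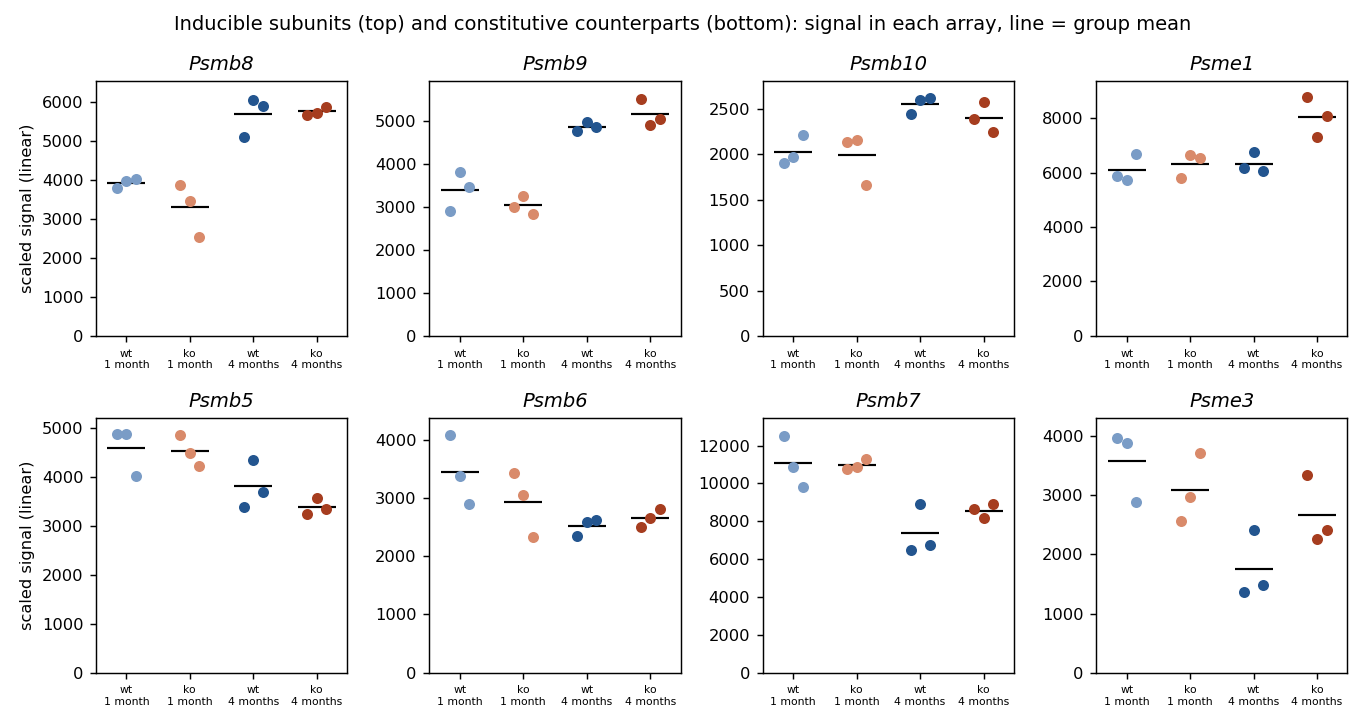
Scaled signal (linear axis from 0) of Psmb8, Psmb9, Psmb10 and Psme1 in the top row and of Psmb5, Psmb6, Psmb7 and Psme3 in the bottom row, in wt and ko spleens at 1 and 4 months; each point is 1 array and each line the mean of 3. Psmb8 and Psmb9 lie higher in all 6 arrays at 4 months than in all 6 at 1 month, and Psmb7 lies lower in all 6.

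The constitutive catalytic subunits went the other way. Psmb7, with trypsin-like activity, read 12530, 10890 and 9797 in wt and 10790, 10880 and 11290 in ko at 1 month, and 6481, 8915 and 6764 in wt and 8640, 8149 and 8919 in ko at 4 months. It fell 1.51-fold in wt (log2 difference -0.59, SE 0.14, limma adjusted p 0.00781), and in ko the difference of -0.36 (SE 0.14) was not called (limma adjusted p 0.0798). Psmb5, with chymotrypsin-like activity, read 4884, 4887 and 4029 in wt and 4861, 4496 and 4226 in ko at 1 month, and 3399, 4344 and 3694 in wt and 3247, 3572 and 3347 in ko at 4 months. In ko it fell 1.33-fold (log2 difference -0.41, SE 0.13, limma adjusted p 0.0361), and the ages did not overlap there. In wt the ages overlapped, and the difference of -0.27 (SE 0.13) was not called (limma adjusted p 0.166). Psmb6, with caspase-like activity, had log2 differences of -0.43 (SE 0.16, limma adjusted p 0.0615) in wt and -0.12 (SE 0.16, limma adjusted p 0.625) in ko, and was called in neither.

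Set against its own counterpart, each inducible gene gained with age in each genotype. Relative to the mean of wt at 1 month, Psmb8 minus Psmb5 on the log2 scale was -0.15, -0.07 and 0.22 in wt and -0.11, -0.15 and -0.50 in ko at 1 month. The older mice had 0.80, 0.70 and 0.89 in wt and 1.02, 0.90 and 1.03 in ko. The gap thus widened by 0.80 in wt and 1.23 in ko. The same gap widened by 0.96 and 0.88 for Psmb9 minus Psmb6, and by 0.92 and 0.63 for Psmb10 minus Psmb7. Psme1 minus Psme3, the activators of the core in the cytoplasm and in the nucleus, widened by 1.11 and 0.55. For each of these 4 pairs all 6 arrays at 4 months lay above all 6 at 1 month. These gaps are descriptions without a test, since the pairs were chosen with earlier results known.

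Many other subunits of the 20S core were lower at 4 months. Of the 7 alpha ring genes, 3 fell in wt and 4 in ko: Psma1, Psma5 and Psma6 in both genotypes and Psma7 in ko. Psma1 read 7313, 7586 and 7162 in wt and 8221, 8497 and 7642 in ko at 1 month, and 5037, 5216 and 5597 in wt and 4564, 5642 and 5211 in ko at 4 months. All 6 older arrays lay below all 6 younger ones. Psma1 fell 1.39-fold in wt (-0.48, SE 0.12, limma adjusted p 0.0116) and 1.58-fold in ko (-0.66, SE 0.12, limma adjusted p 0.00133). Psma3 stood out at the other end in wt, with a log2 difference of 0.10 (limma adjusted p 0.588), and Psma2 in ko, with -0.13 (limma adjusted p 0.506). Of the 4 beta ring genes without catalytic sites, none was called in wt, where they ran from -0.40 for Psmb3 to -0.18 for Psmb1. A second Psmb3 probe set ran the other way in wt. It read 1591, 1431 and 1818 at 1 month and 1911, 1986 and 1887 at 4 months. Its mean in ko was 1810 at 1 month and 1609 at 4 months. In ko Psmb3 fell by 0.64 (limma adjusted p 0.0133) and Psmb4 by 0.50 (limma adjusted p 0.0153) on the log2 scale.

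The 19S particle showed the same direction. Its ring of 6 ATPases unfolds the substrate, and 2 of them, Psmc3 and Psmc6, fell in both genotypes, with Psmc2 falling in ko as well. Psmc6 read 5292, 5107 and 4364 in wt and 5685, 5083 and 5080 in ko at 1 month, and 3122, 3658 and 3645 in wt and 3110, 3729 and 3469 in ko at 4 months. Both genotypes separated fully by age, with log2 differences of -0.50 (SE 0.13, limma adjusted p 0.0138) in wt and -0.62 (SE 0.13, limma adjusted p 0.00342) in ko. Psmc4 was uneven within wt at 1 month, with 1621, 1453 and 3494, and was not called in either genotype.

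Among the 11 other 19S subunits, 6 fell in wt and 2 in ko. Psmd13 and Psmd6 fell in both, by 0.71 and 0.44 on the log2 scale in wt and by 0.60 and 0.44 in ko. Psmd13 read 2333, 1729 and 2255 in wt and 2327, 2452 and 2131 in ko at 1 month, and 1149, 1512 and 1173 in wt and 1293, 1722 and 1541 in ko at 4 months. Its groups did not overlap by age within a genotype. In wt alone, calls were made for Psmd8 (-0.48), Psmd11 (-0.64), Psmd12 (-0.44) and Psmd14 (-0.51), which is the deubiquitinase of the particle. Psmd11 and Psmd14 overlapped between the ages: Psmd11 read 17140, 14550 and 9505 at 1 month and 7782, 11070 and 7281 at 4 months in wt. The highest values in this class were 0.05 for Psmd3 in wt and -0.09 for Psmd11 in ko, neither of them called.

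The 3 assembly chaperones of the 19S particle, which help to build it and are not part of the finished enzyme, were also lower. Psmd5 and Psmd9 fell in both genotypes and Psmd10 in ko. Psmd9 read 1332, 938.5 and 1466 in wt and 1463, 1500 and 1462 in ko at 1 month, and 599.5, 820.1 and 672.5 in wt and 887.3, 990.0 and 1032 in ko at 4 months. It fell 1.74-fold in wt (log2 difference -0.80, SE 0.17, limma adjusted p 0.00357) and 1.51-fold in ko (-0.59, SE 0.17, limma adjusted p 0.0189). The chaperones of the 20S core were less uniform. Psmg1 (-0.42) and Psmg2 (-0.64) fell in wt, Psmg3 (-0.84, limma adjusted p 0.0119) fell in ko, and Psmg4 had differences of 0.11 in wt and 0.33 in ko that were not called.

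The largest decreases in wt were in the regulators of the core. Psmf1, which encodes the proteasome inhibitor subunit, read 2876, 2093 and 2794 in wt at 1 month and 854.6, 1726 and 1120 at 4 months. In ko it read 3225, 3303 and 3210 at 1 month and 1952, 2097 and 2039 at 4 months. The ages separated in both genotypes. It fell 2.13-fold in wt (log2 difference -1.09, SE 0.20, limma adjusted p 0.00104) and 1.59-fold in ko (-0.67, SE 0.20, limma adjusted p 0.0217). Psme3 forms the nuclear 11S activator, the counterpart of Psme1 and Psme2. It read 3980, 3890 and 2895 in wt at 1 month and 1365, 2422 and 1475 at 4 months, a 2.07-fold decrease (log2 difference -1.05, SE 0.22, limma adjusted p 0.00287). In ko, Psme3 read 2566, 2967 and 3725 at 1 month and 3342, 2262 and 2415 at 4 months, and the difference of -0.21 (SE 0.22) was not called (limma adjusted p 0.535). The 2 age effects of Psme3 differed by 0.84 (SE 0.31), which was not called either (limma adjusted p 0.453). A second Psme3 probe set had lower means at 4 months in both genotypes, 1207 against 2070 in wt and 2336 against 3466 in ko. Its ko arrays at 1 month ran from 1787 to 5618. Psme4, another nuclear activator, fell by 0.63 on the log2 scale in wt (limma adjusted p 0.00632) and had a difference of -0.33 in ko (limma adjusted p 0.111).

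**Figure D2:**
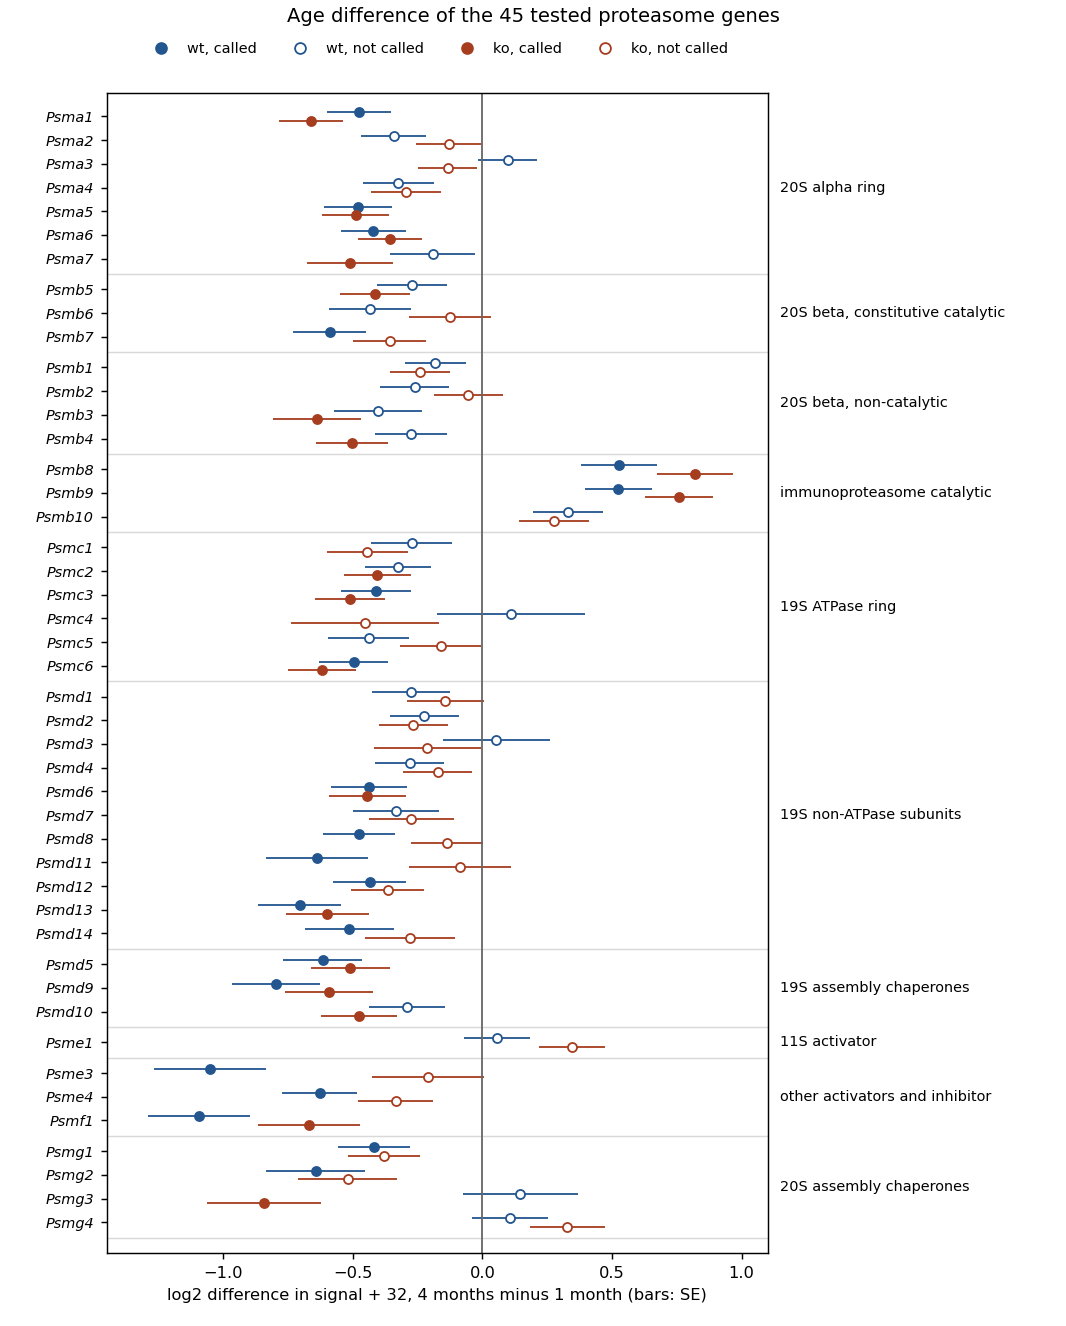
Log2 difference between 4 months and 1 month for the 45 tested genes, grouped by role, in wt (blue) and ko (red-brown); bars are standard errors and filled points passed a limma adjusted p of 0.05. Psmb8 and Psmb9 are the filled points to the right of 0, and all other filled points lie to the left, the lowest being Psmf1 at -1.09 in wt.

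Across both genotypes, 36 of the 45 genes had negative age differences in wt and in ko, 5 had positive ones in both and 4 had opposite signs. The 10 genes that fell in both were Psma1, Psma5, Psma6, Psmc3, Psmc6, Psmd5, Psmd6, Psmd9, Psmd13 and Psmf1. A further 9 fell in wt alone and 7 in ko alone, and these are not shown to differ between the genotypes, since the test of that difference called no member. Of the 31 constitutive subunits, 28 had negative differences in wt and 31 in ko, called or not. These counts were 28 and 27 under quantile normalization and 28 and 31 with each array centred on its median.

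How many members fell depended on single mice. In wt, 21 members were called with age, 2 up and 19 down. The number was 9 without replicate 1 at 1 month, and 10 without replicate 1 or 12 without replicate 3 at 4 months. It was 19, 1 up and 18 down, without the array that carried pancreas transcripts. In ko, 19 were called, and 7 without replicate 1 or 5 without replicate 2 at 1 month, and 5 without replicate 1 or 11 without replicate 3 at 4 months. The arrays also fell into 2 sets by their highest signal (33427 to 37921 in 6 arrays, 51247 to 68987 in the other 6), and all 3 arrays of ko at 1 month were in the lower set. With that set as a block, 24 members were called in wt, among them all 21, and 15 in ko, 12 of them from the 19. Within the higher set, 16 were called in wt, 14 of them from the 21. The lower set holds 1 array of each age in wt and 1 of ko at 4 months, so its spread comes from ko at 1 month alone, with 2 residual degrees of freedom. There 3 were called in wt and 2 in ko, which says nothing of stability; the log2 differences were 0.55 for Psmb8 and 0.48 for Psmb9 in wt and 0.81 and 0.69 in ko.

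Averaged over genes, the inducible score (Psmb8, Psmb9, Psmb10 and Psme1) and the constitutive score (31 genes) parted with age. Relative to the mean of wt at 1 month, the inducible score minus the constitutive score was -0.21, 0.07 and 0.14 in wt and -0.18, -0.06 and -0.23 in ko at 1 month. At 4 months it was 0.75, 0.62 and 0.74 in wt and 0.82, 0.68 and 0.69 in ko. All 6 arrays at 4 months were above all 6 at 1 month. The age difference was 0.70 log2 units in wt, from 0.36 in the inducible and -0.34 in the constitutive score. In ko it was 0.89, from 0.55 and -0.34. The SD within groups was 0.12. With all probe sets of a gene averaged, these 2 differences were 0.57 and 0.65. By role, the age difference in wt ran from -0.92 for the other activators and inhibitor, over -0.57 for the 19S chaperones and -0.39 for the 19S non-ATPase subunits, to 0.46 for the immunoproteasome catalytic subunits. In ko the same 4 scores were -0.40, -0.53, -0.27 and 0.62.

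**Figure D3:**
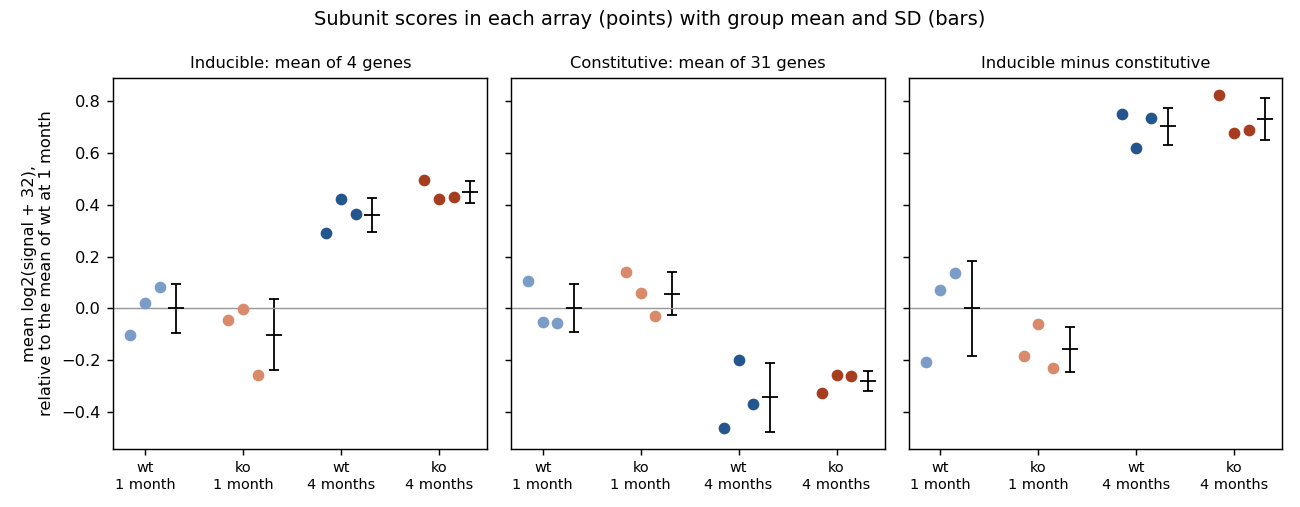
Mean log2(signal + 32) relative to the mean of wt at 1 month for the inducible genes, the constitutive subunits, and the first minus the second, in each array (points) with the group mean and SD (bars), n = 3. The inducible score is higher and the constitutive score lower at 4 months, and their difference lies between 0.62 and 0.82 in the 6 arrays at 4 months and between -0.23 and 0.14 in the 6 at 1 month.

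In ko against wt, no subunit was called at 1 month or at 4 months. At 1 month the count was 0 of 45, beside 0.444% of all probe sets, and 4 had an unadjusted limma p under 0.05. At 4 months it was again 0 of 45, beside 2.3%, and 6 had an unadjusted limma p under 0.05. Over all 27041 probe sets tested, 4273 had such a p at 1 month and 4257 at 4 months, a larger share each time than among the 45 genes. Counted by probe set, 14 of the 86 tested member probe sets had such a p at 1 month, about the share of all probe sets. At 4 months 10 of the 86 did, a smaller share. The median log2 difference of the members was 0.03 at 1 month and 0.05 at 4 months, beside -0.04 and -0.01 over all probe sets tested. For Psmb8 the differences were -0.27 (SE 0.15, limma adjusted p 0.376) at 1 month and 0.02 (SE 0.15, limma adjusted p 0.959) at 4 months. For Psmb9 they were -0.15 (SE 0.13, limma adjusted p 0.587) and 0.08 (SE 0.13, limma adjusted p 0.818). Psmb8 was lowest in replicate 3 of ko at 1 month, with 2553, and the genotypes overlapped at both ages for Psmb8, Psmb9 and Psmb10. The gap between the inducible and the constitutive score, ko minus wt, was -0.16 in the younger mice and 0.03 in the older, against the SD within groups of 0.12.

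Psmf1 was the member called between genotypes over both ages, higher in ko by 0.55 (SE 0.14, limma adjusted p 0.0340), where 2.83% of all probe sets were called higher and 2.56% lower. Of its 4 probe sets 3 were called, with log2 differences of 0.55, 0.59 and 0.45, and the remaining one had 0.11 (limma adjusted p 0.653). By age it was 0.34 (SE 0.20) at 1 month, with a limma adjusted p of 0.411, and 0.76 (SE 0.20) at 4 months, with 0.0543, and the genotypes did not overlap at either age. The call was kept without replicate 1 or 3 of wt at 1 month or replicate 2 of wt at 4 months, with values of 0.58 to 0.68, and lost when any of the other 9 arrays was left out. It was also lost with the array set as a block (0.53, limma adjusted p 0.0621).

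With all 12 arrays no further member was called between genotypes, but some were when 1 array was left out. Without the wt array at 4 months that carried pancreas transcripts, Psmf1 (1.03, limma adjusted p 0.00247), Psme3 (0.88, limma adjusted p 0.0246) and Psmd8 (0.54, limma adjusted p 0.0437) were higher in ko at 4 months. With it, Psme3 had a difference of 0.63 (limma adjusted p 0.158) and Psmd8 of 0.40 (limma adjusted p 0.163). Without replicate 3 of wt at 1 month, Psmc4 (1.12), Psmg3 (1.01) and Psmd3 (0.87) were higher and Psmd11 (-0.72) lower in ko at 1 month, with limma adjusted p of 0.0143 to 0.0278. With all arrays these were 0.73, 0.76, 0.59 and -0.48, with limma adjusted p of 0.129 to 0.253. Over both ages, Psmc4 (0.64, limma adjusted p 0.0219), Psmd3 (0.60, limma adjusted p 0.00736) and Psmd9 (0.43, limma adjusted p 0.0335) were also called without that array. Psmd9 was called over both ages without the array with pancreas transcripts (0.42, limma adjusted p 0.0492), and Psmg2 without replicate 3 of wt at 4 months (0.47, limma adjusted p 0.0468). Replicate 3 of wt at 1 month read 3494 for Psmc4, 1735 for Psmd3 and 9505 for Psmd11, against 1621 and 1453, 1087 and 854.6, and 17140 and 14550 in the other 2 wt arrays at 1 month. Other tested Psmd11 probe sets disagreed in direction at 1 month. One read 1770, 1982 and 1851 in ko, wholly above 1054, 1479 and 1485 in wt. Another had means of 2097 in ko and 1841 in wt. The rest were lower in ko, with means of 2493 against 3772 and 177.7 against 206.8 in wt.

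The change of the genotype effect from 1 to 4 months was called for no member, beside 0.0481% of all probe sets. An unadjusted limma p under 0.05 was found for 2 of the 45 members. Over all 27041 probe sets tested it was found for 2338, a larger share. These were Psmg3, with -0.99 (SE 0.31, limma adjusted p 0.371), and Psme3, with 0.84. Psmg3 read 723.1, 565.7 and 1103 in wt and 1424, 1521 and 1061 in ko at 1 month. At 4 months it read 855.8, 774.0 and 938.2 in wt and 561.1, 873.7 and 764.5 in ko, so ko was mostly the higher group at 1 month and mostly the lower one at 4 months, with overlap at both. Psme1 was higher in all 3 ko arrays than in all 3 wt arrays at 4 months, by 0.34 (SE 0.13, limma adjusted p 0.186).

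**Figure D4:**
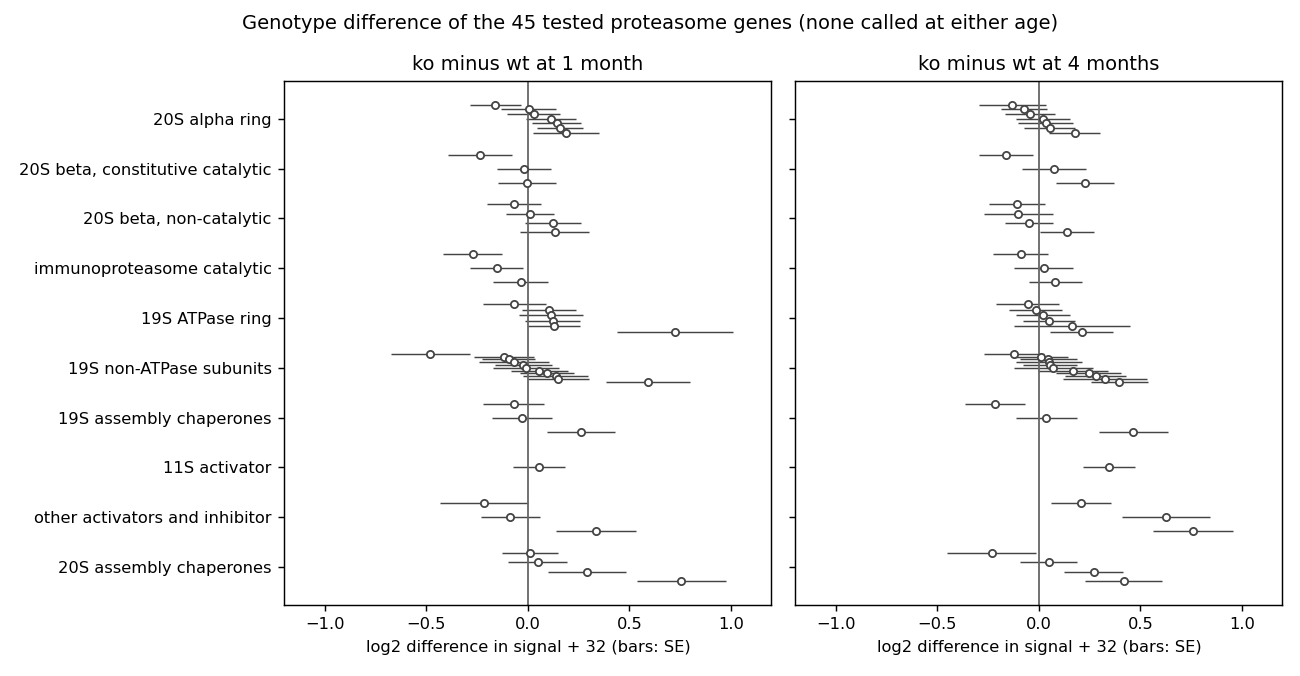
Log2 difference of ko minus wt for the 45 tested genes, grouped by role, at 1 month (left) and 4 months (right); each point is a gene and bars are standard errors. No point is called at either age; the highest are Psmg3 (0.76) and Psmc4 (0.73) at 1 month and Psmf1 (0.76) and Psme3 (0.63) at 4 months.

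Genes that work with the proteasome were read from lists written with earlier results of these data known. Of 6 measured partners of the particle, Usp14 and Uchl5, the deubiquitinases that dock on the 19S particle, fell with age in both genotypes. Usp14 fell by 0.86 in wt and 0.74 in ko, and Uchl5 by 0.52 and 0.95, on the log2 scale (limma adjusted p 0.000592 to 0.0244). Usp14 read 2850 to 4016 in the 6 arrays at 1 month and 1627 to 2206 in the 6 at 4 months. The maturation factor Pomp had differences of -0.05 and -0.07 and was not called. Of 8 regulators of proteasome genes and ubiquitin shuttle factors, among them Nfe2l1 and Nfe2l2, none was called in either age comparison. In wt 2 and in ko 1 had an unadjusted limma p under 0.05. Over all 27041 probe sets tested, 9312 in wt and 9484 in ko had such a p, a larger share each time.

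Several genes of MHC class I peptide loading rose with age. Of 12, 4 rose in wt and none fell, with a median log2 difference of 0.36, and 6 rose and 1 fell in ko, with a median of 0.50. Tap1, which shares its start region with Psmb9, read 965.6, 1114 and 1218 in wt and 931.6, 1069 and 879.3 in ko at 1 month, and 1929, 1586 and 1313 in wt and 1995, 1645 and 2067 in ko at 4 months. It rose by 0.53 in wt (limma adjusted p 0.0298) and 0.96 in ko (limma adjusted p 0.00074), and every array at 4 months was above every array at 1 month. Its pump partner Tap2 rose by 0.66 and 0.55, and the class I regulator Nlrc5 by 0.64 and 0.65. The loading factor Tapbp rose in wt (0.62), and the class I chains H2-K1 (0.87), H2-D1 (0.66) and B2m (0.45) rose in ko, where the chaperone Canx fell by 0.45. The ko group at 1 month lies wholly in the lower array set. With the set as a block, a choice made after these values were seen, the differences in ko were 0.56 for H2-K1 and 0.40 for H2-D1, both still called (limma adjusted p 0.00262 and 0.0196). The calls of B2m (0.23, limma adjusted p 0.0997), Canx (-0.34, 0.0651) and Nlrc5 (0.66, 0.0625) were lost. Tap1 and Tap2 kept theirs, with 0.86 and 0.67 (limma adjusted p 0.00472 and 0.0146). In wt all 4 calls were kept with the block, but the differences were smaller within the lower set, which holds 1 wt array of each age. There they were 0.11 for Tap1, 0.43 for Tap2, 0.23 for Tapbp and 0.44 for Nlrc5. Within the higher set they were 0.74, 0.78, 0.81 and 0.73.

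Of 17 tested genes of interferon gamma signalling, 5 rose in wt and 6 in ko and none fell. Ifngr1, Ifngr2, Irf1, Irf8 and Ciita rose in both, Irf1 by 0.72 and 0.66 and Ciita by 1.07 and 1.08, and Jak1 rose in ko (0.36), a call that was lost with the array set as a block (0.30, limma adjusted p 0.0682). Ifng itself did not pass the filter on low signal. In ko against wt, no gene of these 4 lists was called at either age or with the ages combined. Across the 4 lists, 2 of the 43 genes tested had an unadjusted limma p under 0.05 at the younger age, 4 at the older and 6 when both were combined. Over all 27041 probe sets tested, 4273, 4257 and 6166 had such a p, a larger share each time.

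Markers of cell types moved with age in the same arrays, and their part in the proteasome differences was not tested. Dividing cell markers fell in 9 of 9 genes in wt and 8 of 9 in ko. Their summed signal was 54510 to 77580 in wt and 60120 to 63680 in ko at 1 month, and 15510 to 28940 in wt and 32620 to 37190 in ko at 4 months. Erythroid markers fell in 9 of 9 genes in wt and 5 of 9 in ko, with sums of 98300 to 128700 and 100700 to 114700 at 1 month, and 33770 to 57210 and 73110 to 84380 at 4 months. Neutrophil markers fell in 12 of 13 genes in wt and 13 of 13 in ko, with sums of 45020 to 55330 and 130900 to 162800 at 1 month, and 10100 to 15100 and 53080 to 70760 at 4 months. These lists had the direction of the constitutive subunits.

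Markers of other white cells had the direction of Psmb8 and Psmb9. B cell markers rose in 8 of 9 genes in wt and 7 of 9 in ko, with sums of 36490 to 39870 and 27490 to 30700 at 1 month, and 58360 to 68760 and 47340 to 60220 at 4 months. T cell markers rose in 5 of 9 genes in wt and 8 of 9 in ko, from sums of 9491 to 10500 and 7299 to 9087 to sums of 13300 to 15440 and 11950 to 14220. The B and T cell markers of spleen were thus present in every array. Dendritic cell markers rose in 3 and 6 of 7 genes, from 3987 to 4586 in wt and 2961 to 3507 in ko at 1 month to 6688 to 6972 and 5922 to 7603 at 4 months. Monocyte and macrophage markers rose in 5 and 7 of 8 genes, from 30010 to 41600 in wt and 21300 to 26920 in ko to 44990 to 50310 and 48530 to 51110. NK and cytotoxic markers rose in 5 of 8 genes in each genotype, from 3943 to 4861 in wt and 3805 to 4903 in ko to 7254 to 9328 and 7033 to 7625. Between genotypes, neutrophil markers were higher in ko in 13 of 13 genes at 1 month and 12 of 13 at 4 months. At 4 months erythroid markers were higher in ko in 6 of 9 genes and dividing cell markers in 8 of 9. The higher Psmf1 in ko was measured in these same arrays.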

How the data were processed

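Biotin-labelled spleen RNA of 12 mice was hybridised to 12 arrays. The deposited table gives 1 linear intensity for each probe set and array, made with MAS5 per the submitters' processing notes (version not given in the sources used here). The 64 control probe sets were left out, and names came from GEO's platform annotation (34945 probe sets with 1 symbol, 932 with several, 9160 with none). Arrays were brought to 1 trimmed mean (500, with 2% trimmed at each end), 32 was added and log2 taken. Probe sets with a signal of at least 100 in at least 3 arrays were tested, in all 27041. Group means were fitted with limma 3.58.1 (R 4.3.3; lmFit, eBayes with trend; 8 residual and 8.27 prior degrees of freedom), with 2-sided tests, Benjamini-Hochberg adjustment and a threshold of 0.05. The fit was checked on simulated data.

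Named were the inducible genes and their counterparts, members called in any comparison, the highest and lowest of each role, members with disagreeing probe sets, and up to 6 called genes per list. The members and lists were chosen with earlier results of these data known, so scores carry no test. Replicate numbers were checked for pairing and showed no strong shared signal, which cannot exclude that they pair the mice. Sequences are from RefSeq, GRCm38.p6. Arrays are limited in precision by their number. Alternatives changed the scaling, offset, filter, variance prior, weights, blocks, probe set summary and arrays included. Protein sequences and Psme2 were not analysed here.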

Additional observations from a re-analysis of the deposited data

How the results depend on the processing

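No result changed direction past the threshold. Of 280 values of single inducible genes under settings other than leaving out 1 array, 269 stayed on their side of the threshold. With 1 array left out, 92 of 96 did. Scores and counts of called members have no such threshold. A score was held stable if it moved by less than the SD within groups, and a count if it stayed of similar size. By that rule 160 of 182 were stable, and 77 of 96 with 1 array left out. Offsets changed no count of calls. Members called with age numbered 21 in wt and 19 in ko, against 13 in wt without an intensity trend, 11 and 30 with array weights, 3 and 2 within the array set of lower highest signal (1 array in each wt arm and in ko at 4 months), and 8 in wt when only the groups compared were fitted. With 1 array left out they were 9 to 22 in wt and 5 to 17 in ko. For ko against wt at 4 months the count went from 0 to 1 under quantile normalization, a filter at 200, robust eBayes, array weights, the array set as a block and the mean over probe sets, and was 0 to 3 with 1 array left out. At 1 month it was 0 under every alternative with all arrays and 0 to 4 with 1 array left out. Over both ages the count went from 1 to 0 without a filter, without an intensity trend, with the array set as a block and within the lower array set, and was 0 to 4 with 1 array left out. For the change of the genotype effect from 1 to 4 months it was 0 throughout. The gap between inducible and constitutive scores was 0.572 in wt and 0.645 in ko with age, and -0.092 between genotypes at 4 months, for the mean over probe sets, and -0.297 between genotypes at 1 month within the lower array set. With 1 array left out it was 0.599 to 0.772 in wt and 0.842 to 0.937 in ko with age, and between genotypes -0.263 to -0.09 at 1 month, -0.02 to 0.053 at 4 months and -0.118 to -0.032 over both ages, with 0.117 to 0.289 for the difference between ages. Beyond the changes given in the report, Psmb9 lost its call in wt with only the groups compared (adjusted p 0.0561, limma). Within the lower array set Psmb8 and Psmb9 in wt and Psmb8 in ko had adjusted p of 0.281, 0.176 and 0.0578 at log2 differences of 0.546, 0.481 and 0.813, against 0.525, 0.525 and 0.821 with all arrays; with 2 residual degrees of freedom, this bears on no call. Median centring moved the median of all probe sets in ko against wt at 1 month from -0.04 to 0.12 and with age in ko from 0.10 to -0.05. The causes were not tested.

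Equal replicate numbers did not pair the mice: 4 of 18 same-numbered pairs correlated above 0.1 (r of -0.201 to 0.211), and 1 of 12 arrays was closest to an array of its own number. With the replicate number as a block, 19 members were called with age in wt and 18 in ko, 0 between genotypes at each age, 1 over both ages and 0 for the difference between ages, and the score gaps were 0.703, 0.888, -0.159, 0.027, -0.066 and 0.185. With the replicate block and the array set block together, 20 were called in wt, 9 in ko and 0 over both ages.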

Other observations

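Several members had a further, dimmer probe set that ran against the called one. In wt, Psma1 fell on its chosen probe set while another, with signals of 280.0 to 543.2, had an age difference of 0.52 on the log2 scale (limma adjusted p 0.063). For Psma6 the other probe set (362.9 to 613.4) had 0.30 (limma adjusted p 0.261), for Psma5 (65.3 to 109.2) 0.14 (limma adjusted p 0.746) and for Psmd11 (1054 to 1982) 0.04 (limma adjusted p 0.896). In ko such probe sets were seen for Psma1 (0.18), Psma5 (0.14), Psmc2 (0.09) and Psmd13 (0.14), with limma adjusted p of 0.541 to 0.849. None of these opposite probe sets was called. Counted over all probe sets of the members that passed the filter, 2 rose and 26 fell of 86 in wt, and 2 rose and 30 fell in ko.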
